A study of Gallus gallus with 14 samples.

Results

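Female chick retina was set against male chick retina over all 14 libraries of a study of lens-induced myopia, in which a minus lens defocuses the eye and drives it to elongate. The labels do not give sex. The groups were chosen by the level of HINTW, a gene on the W chromosome, which only female birds carry: 5 of the 14 libraries held HINTW above 50 CPM (read counts scaled to the library total) and were called female, and the other 9 held less than 1 CPM and were called male. The 5 female libraries are control replicates 2, 3, 4 and 7 and lens replicate 4. The 9 male libraries are control replicates 1, 5 and 6 and lens replicates 1, 2, 3, 5, 6 and 7. All came from wild type White Leghorn chickens whose age label reads postnatal day 3; lens birds wore a lens of -10 D for 3 days, starting at an age of 3 days. Total RNA of whole retina was depleted of ribosomal RNA and sequenced. The sexes are unequal in treatment (4 control and 1 lens library in females, 3 control and 6 lens libraries in males), so treatment was a covariate in the comparison, and only the controls give a comparison within 1 treatment with more than 1 library of each sex. Nothing in the labels says that libraries come from separate birds, so p-values measure the spread between these libraries.

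In birds the female is the sex with unlike sex chromosomes: she has a single Z and a W, and the male has a pair of Z chromosomes. Most Z genes have no W partner, so a female has a single copy where a male has a pair, and birds are known for raising Z output in females only in part and gene by gene. Genes that survive on both Z and W, called gametologs, tend to be sensitive to dose. The chicken Z also holds the male hypermethylated region, known for noncoding RNA that is made from the female Z and not from the methylated male copies.

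The step that 1 read is worth implied 35.7 to 41.4 M reads in female and 30.8 to 41.4 M reads in male libraries, of which the 18631 listed genes held 30.6% to 33.3% in females and 30.3% to 32.2% in males. A floor of 3 counts corresponded to 0.0724 to 0.0840 CPM in female and 0.0725 to 0.0973 CPM in male libraries, and covers counting error only. Of the genes tested, 13854 lie on autosomes, 687 on Z, 38 on W and 86 on unplaced sequences. The 27 autosomal photoreceptor markers summed to 2840 to 4086 CPM in female and 3195 to 3865 CPM in male libraries, and the 3 listed red blood cell markers summed to at most 0.252 CPM in any library. In whole tissue, fewer cells of a type and less RNA per cell cannot be told apart.

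HINTW (chrW:1839400-1896966, GRCg6a), the W copy of a nucleotide hydrolase gene, was listed at 139, 126, 143 and 145 CPM in the female controls and at 117 CPM in the female lens library. In male libraries it ranged over 0.0243 to 0.549 CPM, with a median of 0.0955 CPM. The library just inside the female limit was lens replicate 4 (117 CPM) and the one just outside it was control replicate 6 (0.549 CPM), so no library lay near either limit. Because HINTW made the groups, W-linked genes are described without a test, though they stayed among the genes over which p-values were adjusted.

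W genes were read in female libraries, and no W gene passed 1.07 CPM in any male library. Summed over the 48 listed W genes they gave 661 ± 26.5 CPM in female libraries (SD, n = 5; 642 to 705 CPM) and 1.98 ± 0.732 CPM in male libraries (SD, n = 9; 1.35 to 3.74 CPM). Of the 37 tested W genes other than HINTW, 35 had every female library above every male library (the exceptions were the low loci LOC107050706 and LOC112530483), and 33 W genes exceeded 1 CPM in at least 1 female library. Among autosomal genes 0.144% had all females above all males. The W count was largely fixed in advance, since a W gene made the groups. The filter also asked for 5 libraries, the number of female ones. NIPBLL, a relative of the cohesin loader NIPBL, averaged 80.5 ± 6.71 CPM in females and stayed at or under 0.194 CPM in males. CHDB1, the W copy of a chromatin remodeller, averaged 64.9 ± 9.37 CPM in females, with at most 0.137 CPM in males. RPTC15L averaged 37.0 ± 1.73 CPM and HNRNPKL, the W copy of an RNA-binding protein, 36.5 ± 2.48 CPM in females, and neither passed 0.110 CPM in a male. The signaling genes on W ranged from SMAD2W, a mediator of TGF-beta signals, at 16.3 ± 1.08 CPM down to SMAD7B at 1.16 ± 0.231 CPM in females, and SMAD7B was listed at 0 in every male library. The 18 unnamed W loci above 1 CPM in a female library averaged 0.465 to 20.1 CPM in females.

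Z-linked genes were lower in female retina as a class, and most kept more than 60% of the male level. Of 14665 genes tested, 427 passed (2.91%), 359 of them on Z. The genes tested include 38 W genes, whose outcome was largely fixed in advance by the sex call. Of 687 tested Z genes, 359 passed (52.3%): 345 (50.2%) fell in females and 14 (2.04%) rose, against 11 (0.0794%) and 21 (0.152%) of 13854 autosomal genes (limma, Benjamini-Hochberg adjusted p under 0.05 over all genes tested). Of the 14 rises, 10 are transcripts that entered the test only through the female libraries, and 4 remained when at least 7 libraries had to hold a gene. The median log2 fold change, female over male, was -0.36 on Z and 0.03 on autosomes, and 613 Z genes (89.2%) had a value below 0. Female and male libraries did not overlap in 324 Z genes (47.2%). All 5 females lay below all 9 males in 309 of these (45%), against 1 autosomal gene (0.00722%). All females lay above all males in 15 (2.18%), against 20 autosomal genes (0.144%). The 15 include the 10 transcripts that entered the test only through the female libraries, so their lack of overlap was largely fixed by the filter. Among the 4 female and 3 male controls alone, 225 Z genes fell and 13 rose.

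On the scale of deposited CPM, the 495 Z genes with at least 2 CPM in males had a median female level of 70.5% of the male mean, with quartiles at 60.9% and 82.2%. The same figure over 9054 autosomal genes was 104%. The Z genes were spread between these ends: 114 lay under 60%, 312 between 60% and 90%, and 69 at 90% or more. Summed over all listed Z genes, RNA came to 13299 ± 422 CPM in female and 17529 ± 178 CPM in male libraries (SD, n = 5 and 9), so the female sum was 75.9% of the male sum. The highest female library (13907 CPM) lay below the lowest male library (17176 CPM).

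**Figure D1:**
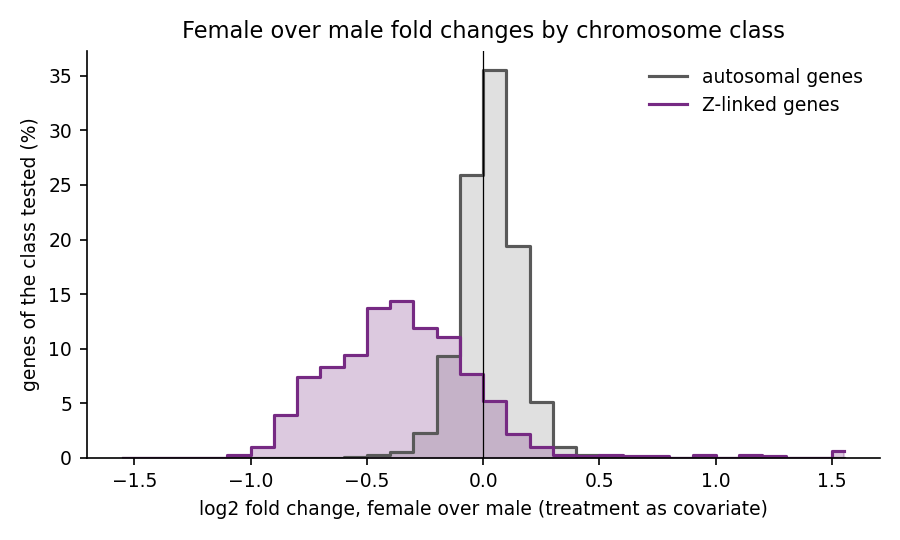
Share of tested genes (%, vertical axis) in each bin of log2 fold change, female over male (horizontal axis), for 687 Z-linked and 13854 autosomal genes; values past the ends are counted in the end bins. The autosomal genes peak near 0 and the Z-linked genes form a wide hump with its median at -0.36.

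The deepest falls among named Z genes came close to 50% of the male level. RPS23, a protein of the small ribosomal subunit (chrZ:63563439-63565259), was listed at 16.9, 15.6, 12.3 and 14.01 CPM in female controls and 11.4 CPM in the female lens library, against 20.7 to 36.7 CPM (median 28.0 CPM) in male libraries. Its log2 fold change was -1.001 (SE 0.14, adjusted p 0.0001). ATP5A1Z, the alpha subunit of mitochondrial ATP synthase, held 25.8, 31.2, 29.1 and 26.9 CPM in female controls and 25.3 CPM in the female lens library, against 46.9 to 60.5 CPM in males (log2 fold change -0.98, adjusted p 9.42e-08). No female library of either gene reached a male one. The same held for all 8 named here, which lie on Z between ATP5A1Z (chrZ:2151344-2159327) and RPS23.

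Falls of like size were seen in a photoreceptor factor, a receptor subunit and 2 respiratory chain subunits. NXNL2, a thioredoxin-like protein known from mice as a trophic factor for photoreceptors, averaged 28.3 ± 3.23 CPM in female and 55.5 ± 3.08 CPM in male libraries (log2 fold change -0.98, adjusted p 1.7e-08). CHRNA6, a subunit of neuronal nicotinic acetylcholine receptors, averaged 15.5 ± 1.20 CPM in females and 30.2 ± 1.66 CPM in males (-0.94, adjusted p 1.07e-08). NDUFS4 of respiratory complex I averaged 8.52 ± 0.401 CPM in females and 16.9 ± 1.74 CPM in males (-0.93, adjusted p 4.45e-07). COX7C of complex IV averaged 7.49 ± 1.12 CPM in females and 15.5 ± 1.695 CPM in males (-0.91, adjusted p 5.79e-06). The DNA repair gene ERCC8 averaged 9.36 ± 0.909 CPM in females and 18.5 ± 0.954 CPM in males (-0.93, adjusted p 5.06e-08). SPIN1Z, a reader of histone marks with a copy on W, averaged 36.1 ± 2.17 CPM in females and 69.0 ± 3.09 CPM in males (-0.92, adjusted p 1.19e-09). Each of these falls passed in all 14 fits that left out 1 library. Those fits reuse the libraries that picked the genes, so they give no independent support.

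Across the lists of retinal and housekeeping genes, 14 of 25 tested Z members fell and 0 rose, with a median log2 fold change of -0.39, near the 50.2% lower and the median of -0.36 over all tested Z genes. The 3 Z members of the oxidative phosphorylation list (NDUFS4, COX7C and ATP5A1Z) all fell, and none of its 46 autosomal members passed in either direction. Of the 4 Z members of the ribosomal protein list, 3 fell (RPS23, RPS6 and RPL17), and none of the 62 autosomal members passed. Over all autosomal genes 0.231% passed, so the lack of autosomal calls is not a result about either list. No Z member passed on the lists of dosage chromatin (2 members), pigment epithelium (3), Müller glia, muscle, glycolysis and heat shock (1 each). RPS6 averaged 78.3 ± 10.02 CPM in females and 141 ± 16.4 CPM in males (log2 fold change -0.74, adjusted p 9.89e-06), and RPL17 averaged 16.4 ± 1.83 CPM in females and 27.4 ± 2.23 CPM in males (-0.72, adjusted p 1.07e-05).

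Several regulators of retinal cell identity are Z genes in chicken, and those named here were chosen after their values were seen. ISL1, a homeobox factor of bipolar, horizontal, amacrine and ganglion cells, was listed at 9.31, 9.01, 11.9 and 12.4 CPM in female controls and 12.3 CPM in the female lens library, against 13.5 to 18.1 CPM in males (log2 fold change -0.49, adjusted p 0.00319). ONECUT2, a factor of horizontal and ganglion cells, averaged 38.4 ± 4.75 CPM in females and 58.7 ± 4.04 CPM in males (-0.66, adjusted p 3.76e-06). RORB, a nuclear receptor needed in rod and interneuron development in mice, averaged 43.9 ± 2.42 CPM in females and 56.3 ± 2.42 CPM in males (-0.38, adjusted p 5.14e-05). Females and males did not overlap in ISL1, ONECUT2 or RORB. RAX, a retinal homeobox gene on Z, did not pass (log2 fold change -0.008). PDE6B, the rod phosphodiesterase subunit of phototransduction, averaged 36.6 ± 8.89 CPM in females and 52.6 ± 4.30 CPM in males (-0.64, adjusted p 0.00111), with the lowest value (24.6 CPM) in the female lens library and an adjusted p above 0.05 in controls alone. ALDH1A1, a retinoic acid synthesis enzyme on the eye growth list, averaged 5.51 ± 1.04 CPM in females and 8.65 ± 1.49 CPM in males (-0.49, adjusted p 0.0379), and its call was lost in 8 of the 14 fits that left out 1 library. HSD17B4, an enzyme of peroxisomal fat oxidation that can also oxidise estradiol, averaged 11.98 ± 2.51 CPM in females and 22.9 ± 1.98 CPM in males (-0.87, adjusted p 5.35e-05).

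Not every Z gene was lower in females. SLC1A3, the glutamate transporter of Müller glia, averaged 286 ± 26.3 CPM in female and 278 ± 24.1 CPM in male libraries, a log2 fold change of 0.04 (adjusted p 0.907) whose sign turned with the scaling. SELENOP1, selenoprotein P, which carries selenium between tissues (chrZ:13587891-13596606), was listed at 88.1, 96.0, 125 and 99.2 CPM in female controls and 110 CPM in the female lens library, against 44.03 to 77.6 CPM (median 63.4 CPM) in males. Every female library lay above every male one, and the log2 fold change was 0.70 (SE 0.12, adjusted p 0.000825). It lies on Z far from the other genes past the threshold in the higher direction.

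Of the 14 Z genes that passed in the higher direction, 10 sit in a short segment. In females, 10 tested transcripts between chrZ:27178701-27398263 were read and in males they were at or near 0; all 10 carry LOC names, and RefSeq marks 2 of them as long noncoding RNA. Together they summed to 94.5 to 114 CPM in female libraries and 0.0282 to 0.335 CPM in male libraries. LOC100859072, a long noncoding RNA (chrZ:27313208-27329640), was listed at 57.2, 60.1, 77.8 and 68.3 CPM in female controls and at 79.9 CPM in the female lens library, and at no more than 0.284 CPM in any male. LOC112530612 averaged 12.3 ± 2.08 CPM in females, with at most 0.0360 CPM in a male, and LOC112530611 averaged 10.8 ± 1.03 CPM in females, with at most 0.0492 CPM in a male. A further 5 listed transcripts inside the same span were too low to test. The segment was picked after its values were seen, so it is described without a test, and the files do not say where the male hypermethylated region lies.

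Protein-coding genes beside these transcripts also stood apart from the rest of Z. SLC1A1, a neuronal glutamate transporter (chrZ:27065545-27125162), was listed at 31.3, 33.4, 27.5 and 29.4 CPM in female controls and 29.6 CPM in the female lens library, against 19.2 to 22.1 CPM in males. Its log2 fold change was 0.51 (SE 0.06, adjusted p 2.96e-05), in the opposite direction to most of Z. GLIS3, a zinc finger transcription factor, averaged 1.84 ± 0.295 CPM in females and 0.970 ± 0.200 CPM in males (0.58, adjusted p 0.00109), again with no overlap. PGM5, further off at a low level, averaged 0.935 ± 0.257 CPM in females and 0.461 ± 0.0630 CPM in males (0.41, adjusted p 0.00591).

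In the window from 26 to 28 Mb, the 21 tested genes other than the 10 transcripts had a median log2 fold change of 0.00. A single gene there fell: RIC1, a factor of vesicle traffic, which averaged 34.7 ± 2.41 CPM in females and 43.6 ± 2.37 CPM in males (-0.31, adjusted p 0.0031). JAK2, a kinase of cytokine signaling, averaged 48.4 ± 6.30 CPM in females and 38.9 ± 5.36 CPM in males without passing (0.30, adjusted p 0.204). The window was set around the 10 transcripts after their values were seen, and the 21 genes include SLC1A1 and GLIS3. RIC1 and JAK2 were also chosen after their values were seen. By bins of 5 Mb, the bin from 25 to 30 Mb had a median of 0.08 with 7 of 44 tested genes lower, and the other bins had medians from -0.55 to -0.23. The 44 include the 10 transcripts, which entered the test only through the female libraries. They raise the median of that bin and reduce its share of lower genes.

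**Figure D2:**
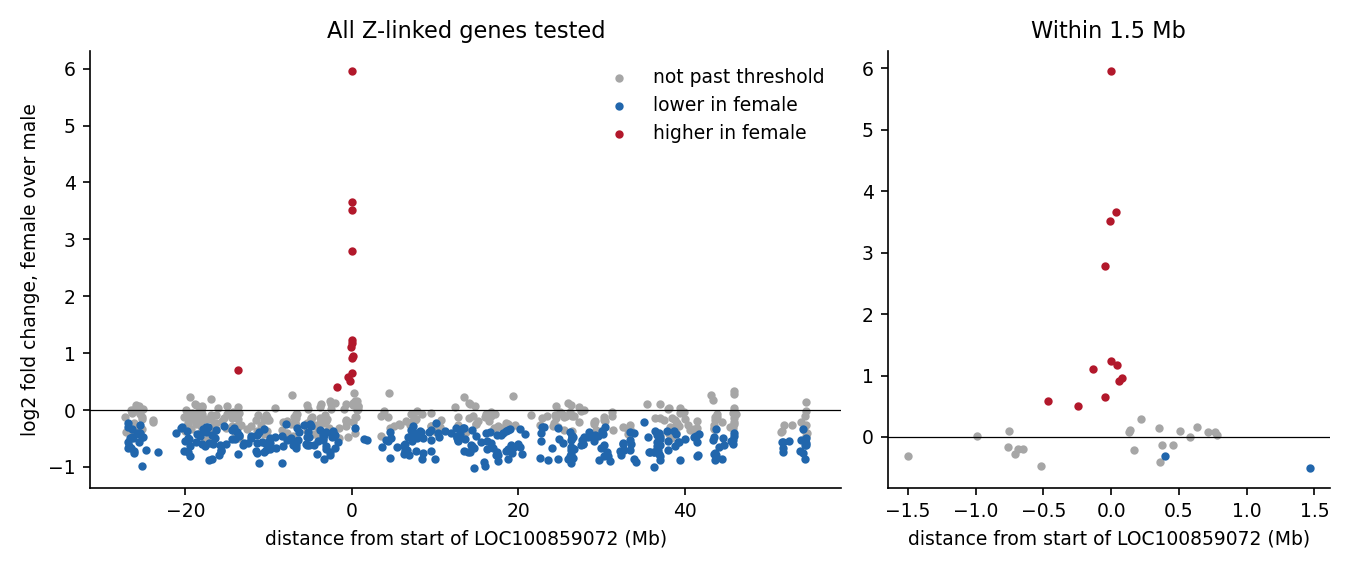
Log2 fold change, female over male (vertical axis), of each tested Z-linked gene against its distance in Mb from the start of LOC100859072 (horizontal axis), over the whole chromosome (left) and within 1.5 Mb (right). Genes lower in females run along all of Z, and the genes higher in females gather near distance 0 apart from SELENOP1 and PGM5.

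Of the 22 tested Z genes on the gametolog list, 20 fell and 0 rose, with a median log2 fold change of -0.55, against 50.2% lower and a median of -0.36 over all tested Z genes. Fold changes on this scale understate low genes, and the gametologs were not matched for level to the other Z genes. Z genes with at least 2 CPM in males had a median female level of 70.5% of the male mean. For 11 of the 22 gametologs a W gene with a matching name was listed, and the 2 copies were added up. These are CPM, not levels per length, and reads of near-identical copies may have been split between them, so each copy is uncertain. The Z copy alone had a median female level of 61.2% of the male level over the 11 pairs. With the W copy added, the median was 145%, with a range from 80.8% to 404%, and 9 pairs lay above 90%.

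The pairs differed widely. HNRNPK and HNRNPKL, RNA-binding proteins, together gave 114 ± 7.33 CPM in females and 114 ± 5.42 CPM in males. ATP5A1Z with ATP5A1W gave 44.3 ± 3.59 CPM in females and 54.2 ± 5.36 CPM in males, and SPIN1Z with SPIN1W gave 55.8 ± 3.13 CPM in females and 69.0 ± 3.09 CPM in males. CHD1Z with CHDB1 gave 126 ± 15.1 CPM in females and 101 ± 7.85 CPM in males, and ZFR with ZFRL1, zinc finger RNA-binding proteins, gave 72.7 ± 6.12 CPM in females and 61.1 ± 3.42 CPM in males. The W copy was the larger part of the female sum for SMAD2W, TERAL2 (beside VCP, a protein-unfolding ATPase), MIER3L, UBE2R2L (a ubiquitin-conjugating enzyme), ST8SIA3W (a sialyltransferase), CHDB1 and HINTW. For HINTW the female sum was 402% of the male sum and for ST8SIA3W 404%, with HINTW among them by the choice of groups.

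**Figure D3:**
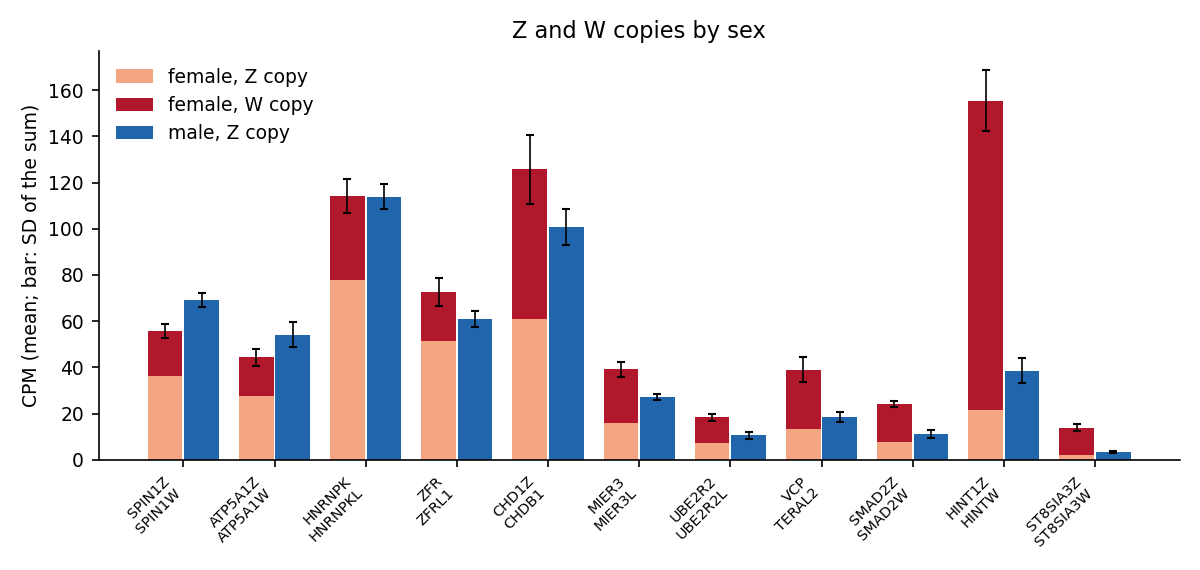
Mean CPM (vertical axis, from 0) of the Z and W copies of 11 gene pairs, stacked for 5 female libraries (left bar of each pair) and with the Z copy for 9 male libraries (right bar); error bars are the SD of the Z and W sum. HNRNPK with HNRNPKL is level between the sexes, SPIN1 and ATP5A1 stay below the male bar, and the others exceed it.

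Autosomal differences were few, mostly small and dependent on how the test was adjusted. With all genes in 1 adjustment, 32 of 13854 autosomal genes passed (0.231%), 21 higher and 11 lower in females. When autosomal genes were fitted and adjusted apart from the sex-linked ones, 0 passed by limma (lowest adjusted p 0.309, for ITGAD), with 1016 at an unadjusted p under 0.05. In the joint fit 1026 autosomal genes (7.41%) had an unadjusted p under 0.05. The joint adjustment holds the 359 Z genes that passed and the 38 tested W genes, and the apart one holds neither. HINTW, which made the groups, is among those W genes, so their outcome was largely fixed in advance. Unless stated otherwise, adjusted p-values of autosomal genes below are those of the joint adjustment. That adjustment limits the share of false calls over all genes tested, not among the autosomal genes alone. Fitted apart by limma, the 32 had adjusted p-values from 0.309 to 0.526. On the scale of log2(CPM + 1), which understates low genes, only 5 of the 32 exceeded 1.5-fold. The absolute log2 fold changes on it ran from 0.21 to 0.80. As a ratio of mean CPM the largest was 3.95, for the low gene LOC426456 (1.01 CPM in females and 0.257 CPM in males). In controls alone all 32 had the same sign, and 16 autosomal genes passed, 3 of them among the 32. The controls hold 4 of the 5 females used to pick the 32, so the shared sign gives no independent support. On deposited CPM, all females lay above all males in 4 of the 32 (OPN4, SCP2 and TBCEL among them). Of 13854 autosomal genes, 21 (0.152%) had no overlap in either direction. Autosomal sums averaged 302887 CPM in female and 292999 CPM in male libraries. Overlap was not counted after rescaling to the same autosomal sum.

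On deposited CPM, where autosomal sums ran higher in females, OPN4 was higher in females without overlap. This gene encodes melanopsin, the photopigment of intrinsically light-sensitive ganglion cells (chr6:3059653-3086510). It was listed at 129, 131, 134 and 130 CPM in female controls and 130 CPM in the female lens library, against 104 to 128 CPM (median 113 CPM) in males. Its log2 fold change was 0.22 (SE 0.05, adjusted p 0.0227). It is the only one of 20 tested autosomal genes on the eye growth list that passed, where 0.231% of all autosomal genes passed. A single call in a list this short is not a result about the list. OPN4 missed the threshold in controls alone (adjusted p 0.118), and its adjusted p reached 0.0941 with 1 library left out (control replicate 5). With autosomal genes fitted apart by limma, its adjusted p was 0.485.

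Autosomal rises that passed in all 14 fits that left out 1 library were those of SCP2, TBCEL, PYROXD1 and ITGAD. SCP2, sterol carrier protein, held 36.9, 34.4, 43.1 and 39.3 CPM in female controls and 35.3 CPM in the female lens library, against 28.6 to 33.6 CPM in males (log2 fold change 0.30, SE 0.06, adjusted p 0.00949). TBCEL, a tubulin-binding cofactor-like protein, held 15.1, 14.7, 16.5 and 15.6 CPM in female controls and 14.8 CPM in the female lens library, against 9.09 to 14.5 CPM in males (0.44, SE 0.09, adjusted p 0.00854). PYROXD1, an oxidoreductase, averaged 2.59 ± 0.497 CPM in females and 1.73 ± 0.300 CPM in males (0.52, adjusted p 0.00204). ITGAD, listed as an integrin alpha chain, averaged 8.22 ± 1.19 CPM in females and 5.95 ± 0.710 CPM in males (0.52, adjusted p 0.00113). Of the other 28 calls only GPC2 passed in all 14 of these fits. The fits reuse libraries that picked the genes, under the joint adjustment, so they give no independent support. With autosomal genes fitted apart by limma, the adjusted p was 0.390 for SCP2, TBCEL and GPC2 and 0.309 for PYROXD1 and ITGAD.

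The other named rises were small, apart from FBXO5, and with treatments pooled the sexes overlapped in each of them. Within each treatment the sexes did not overlap in SMARCA1, NOC3L, MYSM1 or MCF2L2, with a single female library on the lens side. These genes were picked with treatment as covariate, and the share over all autosomal genes was not counted. SMARCA1, a chromatin remodelling ATPase, averaged 45.1 ± 3.39 CPM in females and 38.1 ± 2.15 CPM in males (log2 fold change 0.28, adjusted p 0.00645). LEO1, of the PAF1 transcription elongation complex, averaged 23.5 ± 1.84 CPM in females and 19.6 ± 1.42 CPM in males (0.27, adjusted p 0.0473). NOC3L, a nucleolar protein, averaged 24.2 ± 1.53 CPM in females and 21.3 ± 1.85 CPM in males (0.26, adjusted p 0.0284). MYSM1, a histone deubiquitinase, averaged 47.1 ± 3.55 CPM in females and 42.6 ± 2.48 CPM in males (0.21, adjusted p 0.0379). MCF2L2, an exchange factor gene, had a log2 fold change of 0.23 (adjusted p 0.0151) and also passed between lens and control. FBXO5, an inhibitor of the anaphase-promoting complex, had the largest of these values (0.68, adjusted p 0.0402), but it rested on lens replicate 4 at 12.04 CPM, where the 4 female controls held 3.43 to 7.56 CPM and the males 3.19 to 5.59 CPM. Without lens replicate 4 it was 0.39 (adjusted p 0.425), and the adjusted p was 0.0868 for SMARCA1 and 0.136 for MYSM1. Without control replicate 1 the adjusted p was 0.193 for LEO1, 0.119 for NOC3L and 0.0693 for MCF2L2. Of the 14 fits that left out 1 library, LEO1 passed in 3, MYSM1 in 5, FBXO5 in 6, NOC3L in 8, MCF2L2 in 11 and SMARCA1 in 13.

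CALB1 and GUCA1A, both calcium-binding proteins, passed as lower in females in the joint adjustment. With autosomal genes fitted apart by limma, neither passed (adjusted p 0.390 and 0.526). CALB1, the calcium buffer calbindin, on the horizontal cell list (chr2:124313483-124331356), held 32.1, 40.7, 35.7 and 28.0 CPM in female controls and 22.9 CPM in the female lens library, against 44.3, 48.3 and 44.4 CPM in male controls and 26.96 to 38.8 CPM in male lens libraries. The sexes overlapped when treatments were pooled but not within either treatment, where the lens side rests on a single female library. The same held for GPC2, DGKE, DGKD, CHPT1, ANO2, FAM19A4 and HIST1H2BO. All were picked with treatment as covariate, and the share over all autosomal genes was not counted. The log2 fold change of CALB1 with treatment as covariate was -0.46 (SE 0.10, adjusted p 0.00716). GUCA1A, the activator of photoreceptor guanylate cyclase, held 42.2, 49.4, 51.2 and 51.9 CPM in female controls and 31.5 CPM in the female lens library, against 51.5, 69.1 and 61.6 CPM in male controls and 35.3 to 44.2 CPM in male lens libraries. Pooled over treatments the sexes overlapped widely. Its log2 fold change with treatment as covariate was -0.33 (adjusted p 0.0352), and it also passed between lens and control. Without lens replicate 4 the adjusted p was 0.0864 for CALB1 and 0.201 for GUCA1A, and GUCA1A passed in 7 of the 14 fits that left out 1 library.

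GPC2, a heparan sulfate proteoglycan of neuronal surfaces, held 24.6, 23.4, 25.2 and 20.1 CPM in female controls and 23.0 CPM in the female lens library, against 23.3 to 38.998 CPM in males (log2 fold change -0.42, SE 0.09, adjusted p 0.0066). DGKE and DGKD, kinases that turn diacylglycerol into phosphatidic acid, both fell, by 0.41 and 0.31 on the log2 scale (adjusted p 0.0173 and 0.0109). DGKE averaged 182 ± 20.3 CPM in females and 231 ± 27.5 CPM in males, and DGKD 53.3 ± 2.30 CPM in females and 63.1 ± 7.01 CPM in males. CHPT1, of phosphatidylcholine synthesis, averaged 13.2 ± 1.02 CPM in females and 16.6 ± 1.48 CPM in males (-0.33, adjusted p 0.0266), and ASAH1, acid ceramidase, 34.3 ± 5.52 CPM in females and 39.3 ± 4.08 CPM in males (-0.33, adjusted p 0.0177). MPC1, a subunit of the mitochondrial pyruvate carrier, ANO2, a calcium-gated chloride channel, and FAM19A4, a secreted chemokine-like protein, fell by 0.29, 0.29 and 0.39 on the log2 scale (adjusted p 0.0377, 0.0232 and 0.0195). HIST1H2BO, a core histone gene, had the lowest value (-0.80, adjusted p 0.00965) with wide scatter. It held 5.69 to 11.9 CPM in female controls and 12.4 to 18.9 CPM in male controls. In lens libraries it held 4.44 CPM in the female and 7.02 to 12.1 CPM in males. Without lens replicate 4 the adjusted p was 0.257 for DGKE, 0.247 for ASAH1, 0.309 for ANO2 and 0.0723 for HIST1H2BO. Without control replicate 6 it was 0.165 for MPC1, 0.0908 for FAM19A4 and 0.0620 for DGKD, and without control replicate 5 it was 0.106 for CHPT1. MPC1 passed in 5 of the 14 fits that left out 1 library, CHPT1 in 9 and FAM19A4 in 10.

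**Figure D4:**
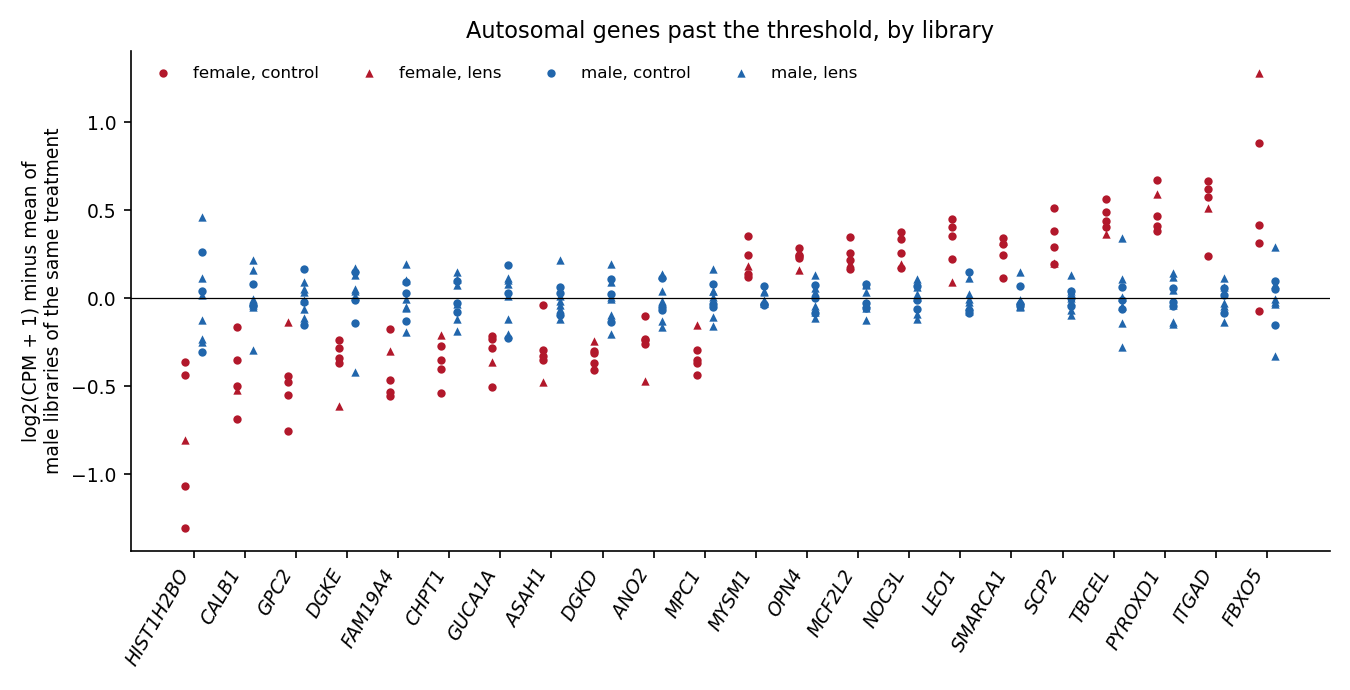
Named autosomal genes past the threshold (horizontal axis) in each library, shown as log2(CPM + 1) minus the mean of male libraries of the same treatment (vertical axis), with females left of males and lens libraries as triangles. For most genes the 5 female points lie to one side of 0 within 0.8, and FBXO5 and HIST1H2BO scatter most.

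Genes of sex determination and dosage were low or did not pass, where 0.231% of all autosomal genes passed. At that share, a lack of calls in lists this short is not a result about the lists. Of 9 tested autosomal genes on the gonad list none passed: SOX9, a testis factor that Müller glia also use, averaged 0.595 ± 0.378 CPM in females and 0.300 ± 0.0714 CPM in males (log2 fold change 0.26, adjusted p 0.387), and AMH, anti-Müllerian hormone, 0.343 ± 0.190 CPM in females and 0.228 ± 0.0829 CPM in males (0.18, adjusted p 0.461). On the list of chromatin regulators of dosage, none of 21 autosomal members passed, with a median of 0.10 against 0.03 over all autosomal genes. KMT2A, a histone methyltransferase, averaged 63.5 ± 7.76 CPM in females and 53.0 ± 4.05 CPM in males (0.28, adjusted p 0.0616), JARID2 of the Polycomb complex 125 ± 9.63 CPM in females and 112 ± 8.02 CPM in males (0.21, adjusted p 0.0838), and the deacetylase HDAC1 46.5 ± 8.82 CPM in females and 38.99 ± 6.42 CPM in males (0.36, adjusted p 0.192). KMT2A passed under 4 alternatives, among them median ratio and quantile scaling.

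Lists of retinal cell types held 1 or 0 autosomal calls each. Of 27 photoreceptor genes GUCA1A fell, and of 8 horizontal cell genes CALB1 fell, where 0.231% of all autosomal genes passed and 0.0794% fell; single calls in lists this short are not a result about the lists. None passed among 12 bipolar, 20 amacrine, 17 ganglion, 18 Müller glia, 12 microglia and 9 oligodendrocyte genes. The 18 ganglion cell markers summed to 378 to 491 CPM (median 460 CPM) in females and 350 to 438 CPM (median 391 CPM) in males, with a median log2 fold change of 0.16. The 11 oligodendrocyte markers summed to 127 to 189 CPM (median 159 CPM) in females and 156 to 228 CPM (median 188 CPM) in males, with a median of -0.15. Sums of both lists overlapped between the sexes, and their part in the calls above was not tested. POU4F1, a ganglion cell factor, averaged 12.8 ± 2.23 CPM in females and 9.74 ± 1.48 CPM in males (0.31, adjusted p 0.331), and MBP, myelin basic protein, 113 ± 21.3 CPM in females and 140 ± 22.7 CPM in males (-0.25, adjusted p 0.515). VIM, vimentin of Müller glia, averaged 117 ± 7.48 CPM in females and 130 ± 12.7 CPM in males (-0.23, adjusted p 0.0528), and it passed under 7 alternatives, among them the same autosomal sum and voom. Of 23 interferon genes none passed, and USP18, which restrains interferon signaling, averaged 0.743 ± 0.102 CPM in females and 1.16 ± 0.315 CPM in males (-0.38, adjusted p 0.0608), passing under 4 alternatives.

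Sex calls were also set against the principal components of the autosomal genes. Component 1 held 27.5% of the variance and gave p = 0.767 in an exact two-sided permutation of the sex calls within treatment (245 assignments, smallest possible p 0.00408). Component 2 held 10.8% and gave an exact permutation p of 0.00816, or 0.0408 adjusted over 5 components. It overlapped between the sexes and was not past the threshold with a pseudocount of 5. Of the 14 repeats that left out 1 library, 8 had a component past the threshold and 6 had none (without control replicates 1, 5, 6 or 7, or lens replicates 4 or 5). The component was not always component 2. Without control replicate 4, components 3 and 5 passed and component 2 did not. With median ratio scaling of all 14 libraries, component 3 passed and component 2 did not. Without lens replicate 4, and in controls alone, the smallest adjusted p possible was 0.143. Whether sex acted differently under lens wear was fitted too: 0 of 14665 genes passed for the interaction by limma (lowest adjusted p 0.698), a fit that rests on the single female lens library.

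**Figure D5:**
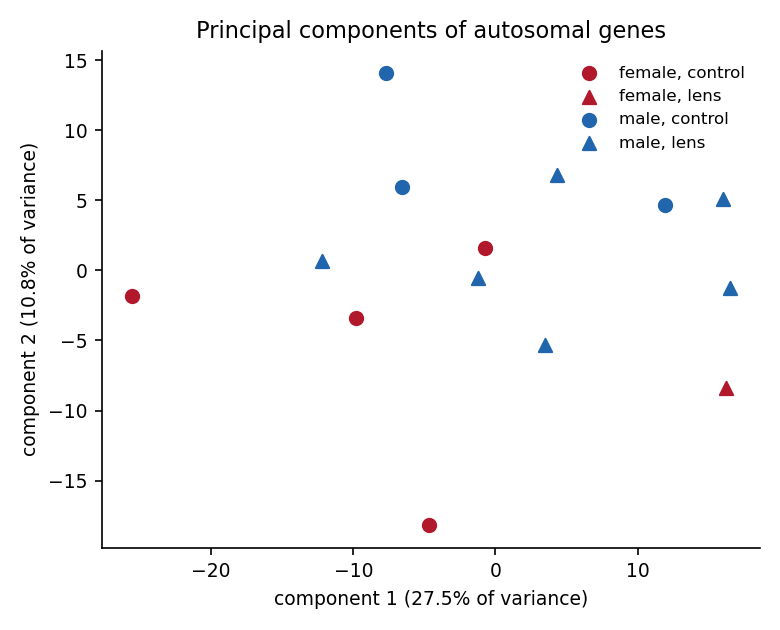
Scores of the 14 libraries on components 1 (horizontal axis, 27.5% of variance) and 2 (vertical axis, 10.8%) of autosomal genes, by called sex and treatment. Females lie mostly in the lower part and males in the upper part, with overlap along both axes.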

How the data were processed

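The authors deposited 1 table of 18631 genes in 14 libraries, which they had normalized to CPM (read counts scaled to the library total) and raised by an offset of 0.0001, as read from the deposited values. After subtracting the offset, 93.2% of small values in an average library lay within 0.02 of a whole multiple of 1 step, checked up to 200 reads. Libraries were made with a stranded total RNA kit, per the labels' protocols. STAR, Partek and the GRCg6a genome were used, per the submitters' processing notes; versions, annotation, counting and use of strand are not given in the sources used here, so overlapping and antisense genes are uncertain.

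Coordinates are those of the deposited table. Chromosome names and gene types came from RefSeq (GRCg7b), where 15697 symbols matched. Sex was called from HINTW. Genes with at least 5 libraries at 0.5 CPM computed on the column sum (0.152 to 0.167 CPM) were analysed as log2(CPM + 1), 14665 in all, by limma (version 3.58.1, R version 4.3.3; lmFit and trended eBayes) on treatment and sex; tests were two-sided, p-values were Benjamini-Hochberg adjusted over all of them and the threshold was 0.05; fold changes on this scale understate low genes. The procedure was checked on simulated data of autosomal genes alone, so the check does not cover the joint adjustment with Z and W genes. Tables and figures used Python 3.11.15, NumPy 2.4.6, pandas 2.3.3 and matplotlib 3.10.9.

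Groups, members and gene lists were chosen with earlier results of these data known. Named genes are the largest autosomal changes past the threshold with a symbol and at least 2 CPM (up to 12 each way), the 8 largest Z falls and rises, W genes above 1 CPM, gametologs, and list members with the smallest p. ISL1, ONECUT2, RORB, RAX, PDE6B, ALDH1A1, HSD17B4, RPS6, RPL17, SLC1A3, GLIS3 and PGM5 were added after their values were seen. The result of 1 gene chosen by this rule is not reported here. Alternatives were other pseudocounts, filters, scalings, covariates and variance models, controls alone, an apart fit of autosomal genes, leaving out each library and, added later, voom on reads recovered from the steps.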

Additional observations from a re-analysis of the deposited data

Results flagged for a closer look

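In 8 of 165 groups of values checked (1 gene in the female or the male libraries), 1 library stood far from the others of its group by Dixon's criterion, and chance flags about 1 group in 20. In females these were ZFR in control replicate 4 (59.0 CPM), SOX9 in control replicate 2 (1.26 CPM) and USP18 in control replicate 3 (0.920 CPM), each the highest. In males the highest libraries were TERAL2 in control replicate 6 (0.110 CPM, near the floor), HINT1Z in lens replicate 6 (51.5 CPM), SMARCA1 in lens replicate 3 (43.1 CPM) and JAK2 in control replicate 5 (52.0 CPM). RPS6 in male control replicate 1 was the lowest (104 CPM, with the next male library at 132 CPM).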

How the results depend on the processing

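The median log2 fold change on Z stayed below 0 under every alternative run and was -0.49 with a pseudocount of 0.1, -0.22 with a pseudocount of 5, -0.27 with no filter, -0.39 after rescaling to the same autosomal sum and -0.51 by voom. The count of Z genes past the threshold was 238 in controls alone. The autosomal count was 16 in controls alone, 0 with autosomal genes fitted apart, and 20 (without control replicate 1) to 49 (without control replicate 2) with 1 library left out; without lens replicate 4 it was 34, of which 10 were among the 32. Its split into higher and lower in females was 21 and 11 as deposited, 13 and 30 with median ratio scaling, 20 and 23 with quantile normalization, 11 and 31 with the same autosomal sum, 7 and 9 in controls alone, 28 and 8 with no treatment covariate and 19 and 15 by voom. Of the 32 autosomal calls, 21 also passed with median ratio scaling, 27 with quantile normalization and 22 with the same autosomal sum. Only 14 of them passed with no treatment covariate, and 27 by voom. With 1 library left out, Z counts ran from 302 to 365. The number of components past the threshold was 0 with a pseudocount of 5 and in controls alone, and 0 to 2 with 1 library left out; controls alone could not have passed (smallest adjusted p possible 0.143). SLC1A3 turned to -0.000418 with median ratio scaling, -0.00266 with the same sum and -0.085 in controls alone, and ran from -0.085 to 0.089 with 1 library left out. The cause of these changes was not tested. All 32 autosomal calls had the same sign under every alternative. The alternatives refit the libraries that picked the 32, so this gives no independent support. No paired analysis was possible because the numbers in the sample codes differ between the treatments and none ties a female to a male library. A planned count test on recovered reads was not run, since the offset leaves some values off whole reads; voom was added after seeing the data. Depth limits what can be read of W genes and of the Z segment's transcripts in males, several of which are listed at 0.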

Other observations

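Some autosomal genes outside the calls had patterns by library. STS, steroid sulfatase on chromosome 1, was listed at 41.7, 34.0045, 70.7 and 73.5 CPM in the female controls and 72.1 CPM in the female lens library. In males it was listed at 2.39 and 2.22 CPM in control replicates 1 and 6, at 39.8 CPM in control replicate 5, at 31.1 CPM in lens replicate 3 and at 69.8 to 81.1 CPM in the other 5 lens libraries. The values thus fell into 3 ranges that cut across sex, and the log2 fold change of 1.93 (adjusted p 0.099) did not pass.

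RAB14, a regulator of endosome traffic, was the autosomal gene with all 5 females below all 9 males: 57.2, 62.5, 54.8 and 60.8 CPM in female controls and 62.2 CPM in the female lens library, against 63.4 to 67.4 CPM in males. Its log2 fold change was -0.13 (adjusted p 0.281). VEGFA, the vascular growth factor, lay at 2.16 to 2.87 CPM in all females and at 1.30 to 2.14 CPM in all males (log2 fold change 0.20, adjusted p 0.454). Both were chosen after their values were seen.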
